A study of Mus musculus with 4 samples.

Results

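The genes described here encode the proteins of the cytosolic ribosome. They were found in the deposited gene table by name: Rpl or Rps, followed by digits and at most 1 of the letters a, l, x or y, together with Rplp0, Rplp1, Rplp2 and Rpsa. The name rule gave 81 of the 24421 rows, 49 for the large subunit (Rpl genes, with the 3 stalk genes Rplp0, Rplp1 and Rplp2) and 32 for the small subunit. Expression was measured by RNA sequencing of polyadenylated RNA in 4 C57BL/6 mice of 8 weeks. Usp25+/+ mice WT-139 and WT-140 carried the intact gene for the deubiquitinase Usp25, and Usp25-/- mice KO-826 and KO-850 lacked it. All 4 mice had drunk dextran sulfate sodium (DSS) at 2.5% for 5 days, which injures the gut lining, and then plain water for 2 days. There was no group without DSS. The labels give the tissue as colon, taken close to the anus. They name no litter or batch, and nothing beyond these 4 animals enters the spread that the p-values use.

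A ribosome reads mRNA on its small subunit and joins amino acids on its large subunit. Each subunit holds ribosomal RNA and many different proteins in fixed proportion, most of them present once per ribosome. The mRNAs of these proteins are among the most abundant in a growing cell. In mammals most of them begin with a C followed by a run of pyrimidines, the 5′ terminal oligopyrimidine (TOP) motif, through which the kinase complex mTORC1 and the protein Larp1 adjust their translation together. Most of the genes have also left many intronless copies in the genome, which matters for counting their reads.

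Facts of the libraries came before the comparison. Usp25 was at 38.5 and 16.6 FPKM (fragment numbers per unit of transcript length and of sequencing) in the Usp25+/+ mice and at 2.65 and 1.71 FPKM in the Usp25-/- mice, so its levels followed the labels (log2 difference -3.07, SE 0.47, adjusted p = 0.968 by limma). Of the gut epithelium markers in the table, 4 of 7 for goblet cells and 4 of 8 for colonocytes were below 1 FPKM in every mouse. Among these, Muc2, the main gut mucin, was between 0 and 0.193 FPKM, and Zg16 and Aqp8 were listed at 0 in every mouse. Other markers of the same lists were detected in every mouse: Car4 at 193 to 399 FPKM, Agr2 at 18.6 to 24.4 FPKM and Krt20 at 3.11 to 52.4 FPKM. All 8 lung epithelium markers were detected in every mouse, and Sftpc, a surfactant protein of alveolar type II cells, was at 339 and 2347 FPKM in the Usp25+/+ mice and at 1376 and 2596 FPKM in the Usp25-/- mice. The word colon is therefore used only as the label's. Mouse WT-139 stood apart: the 11 neutrophil markers in the table summed to 47425 FPKM there and to 850 FPKM in WT-140, while the Usp25-/- mice had sums of 2184 and 1344 FPKM, and Camp was listed at 0 in WT-140. Counts over the members and over each list, and the gene differences that it moves most, are therefore also given without WT-139.

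From here on, a run of 4 values gives the Usp25+/+ mice first (WT-139, then WT-140), followed by the Usp25-/- mice (KO-826, then KO-850). Together the members held 6.36%, 9.27%, 11.5% and 10.2% of each column's summed FPKM. The median member was at 390, 628, 781 and 682 FPKM. Mouse WT-139 was lowest and KO-826 highest on both measures, and WT-140 lay below both Usp25-/- mice. The mean share was 3.08 percentage points higher in Usp25-/- mice, and 1.62 points higher without WT-139. With 2 mice a group, an exact permutation test of such a single value cannot go below p = 0.333. When the 100 highest rows that are not members were taken out of the sum, the shares became 10.3%, 15.6%, 18.7% and 17.3%, in the same order of mice. In bulk tissue, a different mix of cells and a different amount of these mRNAs per cell cannot be told apart.

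FPKM is scaled to transcript length, so levels can be set side by side between genes. The 10 members with the highest mean over the 4 mice were Rplp1, Rps27, Rps14, Rpl41, Rps9, Rps18, Rps26, Rpl32, Rpl10 and Rps4x. Rplp1, a protein of the stalk that recruits translation factors, was at 966, 1984, 2018 and 1753 FPKM. Rps14, a protein of the small subunit platform, was at 776, 1335, 2331 and 1746 FPKM. Rpl41, the smallest of the ribosomal proteins, was at 809, 1297, 1984 and 1645 FPKM. In all 3 genes WT-139 was lowest and KO-826 highest. At the other end stood paralogues known from restricted tissues. Rpl3l, the striated muscle form of Rpl3, was at 0.699, 1.23, 1.30 and 0.975 FPKM. Rpl39l, a form of Rpl39 abundant in testis, was at 2.37, 6.53, 2.48 and 1.86 FPKM. Rpl10l, the testis form of Rpl10, was at 0.527 and 0 FPKM in the Usp25+/+ mice and at 0 and 0.0274 FPKM in the Usp25-/- mice, and was the only member that missed the filter of 1 FPKM in at least 2 mice. The other low members were Rps4l, Rpl21, Rpl34, Rpl26, Rps15a and Rpl22, with means between 24.0 and 110.5 FPKM. Rpl34 and Rpl26 each have a near-identical copy with a separate row, described below, that held most of their summed FPKM. Each sum was above the median member in every mouse, at 1.34 to 1.53 times for Rpl34 and 2.28 to 3.04 times for Rpl26.

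**Figure D1:**
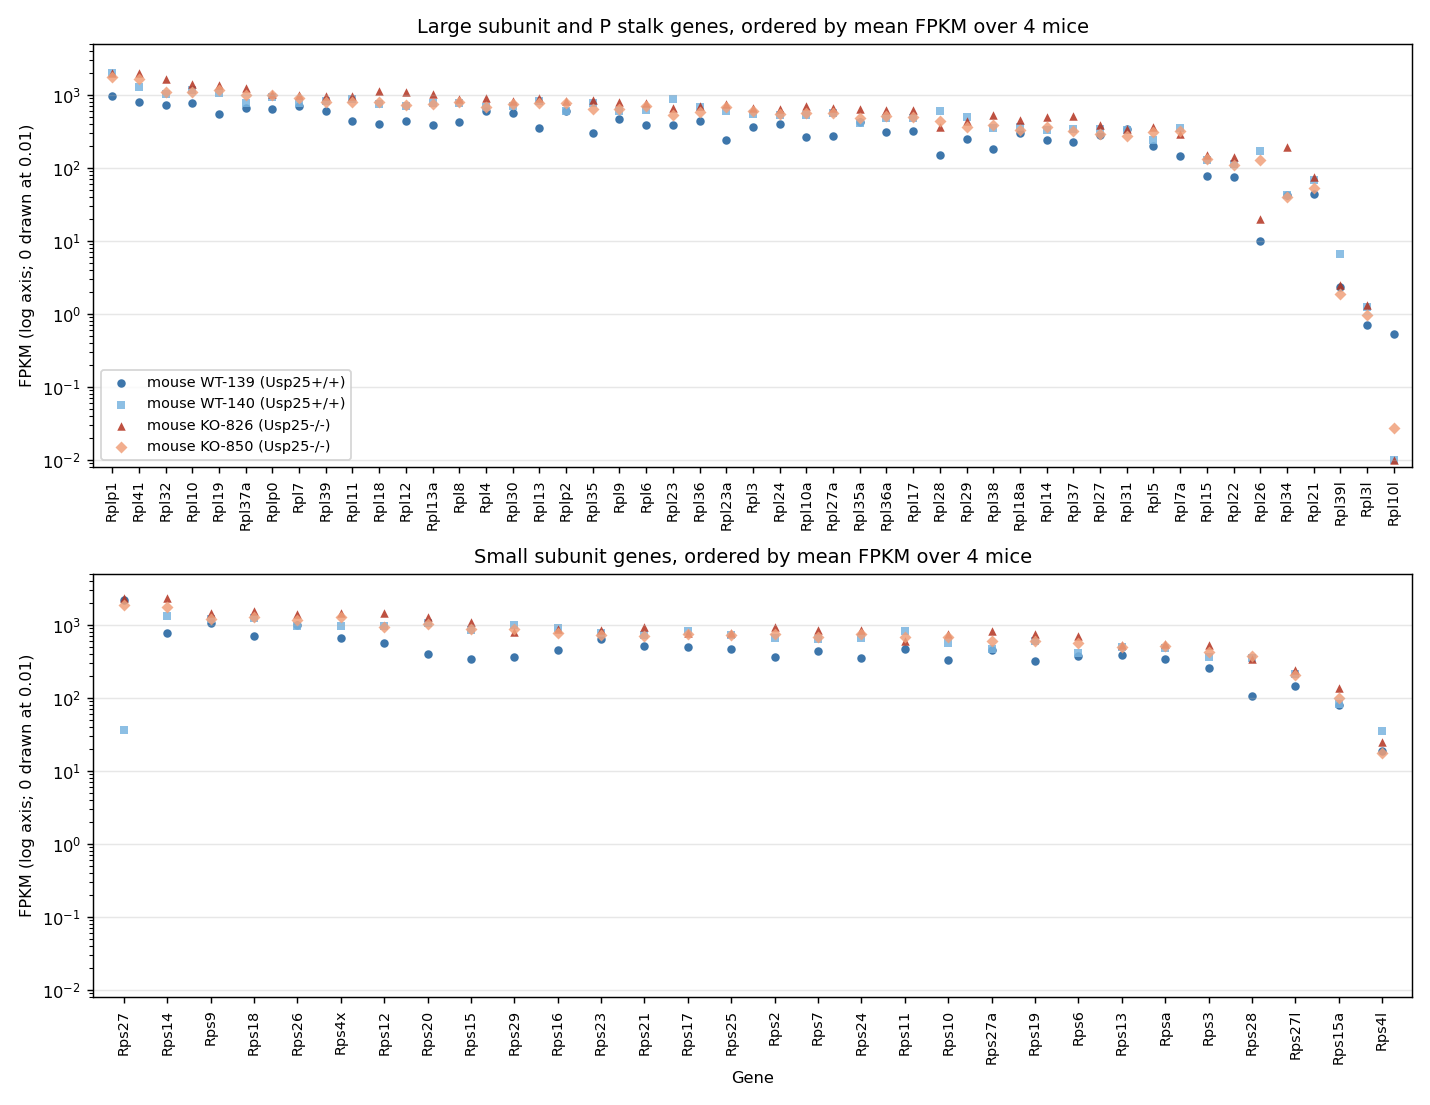
FPKM of 79 of the 81 members in each mouse (log axis, genes ordered by mean FPKM within the large subunit with the stalk, above, and the small subunit, below); values of 0 are drawn at 0.01. The circles of mouse WT-139 lie lowest for most genes, and Rps27 in mouse WT-140 (36.2 FPKM) and Rpl26 in mice WT-139 and KO-826 lie far below the other mice.

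The members moved together from mouse to mouse. Of the 80 tested members, 73 were lowest in WT-139, while that mouse was lowest in 39.1% of all 12103 tested genes. KO-826 was highest in 68 of the 80, against 25.5% of all genes, and 63 of the 80 had both features, against 13.9%. Among the 79 members with at least 1 FPKM in every mouse, all 79 were higher in KO-826 than in WT-139, with a median ratio of 1.96. The gap within Usp25+/+ was as large as a gap between genotypes: 75 of the 79 were higher in WT-140 than in WT-139, median ratio 1.55, and 74 of the 79 were higher in KO-850 than in WT-139, median ratio 1.54. Without WT-139 the gaps were smaller. KO-826 exceeded WT-140 in 67 of the 79, median ratio 1.24, and exceeded KO-850 in 73 of the 79. KO-850 exceeded WT-140 in 47 of the 79 and was below it in 32, with a median ratio of 1.03.

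The order of the members' levels was similar in every mouse. Over the 79 members, Spearman's rho of FPKM between mice ran from 0.770 (WT-139 with WT-140) to 0.966 (KO-826 with KO-850), given as a description since the genes share each library. Relative to the median member of its library, Rpl6, a large subunit protein, varied least, with an SD of 0.024 on the log2 scale over the 4 mice. Its FPKM was 385, 628, 773 and 699. Rpl15, Rpl36a and Rpl3 were also steady, with SDs of 0.037 to 0.048, and 73 of the 80 tested members were below 0.5. The 5 with the largest such SD were Rps27, Rpl26, Rpl34, Rpl39l and Rpl28. Rpl28 was at 150, 612, 363 and 443 FPKM, so the 2 Usp25+/+ mice enclosed both Usp25-/- mice.

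**Figure D2:**
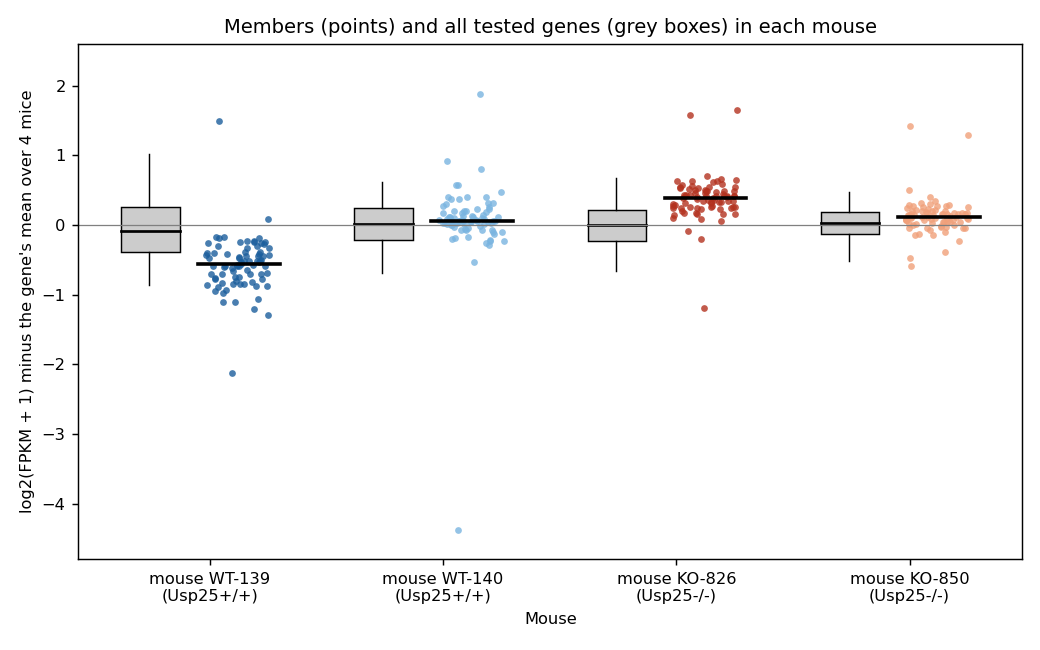
Level of each tested member in each mouse (points, log2(FPKM + 1) minus the gene's own mean over the 4 mice; black bar, median of the 80 members) beside all 12103 tested genes (grey boxes, quartiles and median; whiskers, 5th to 95th percentile). The member median is -0.56 in WT-139 and 0.39 in KO-826, while the medians of all genes stay between -0.08 and 0.03.

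The genotypes were set against each other with limma (moderated test on log2(FPKM + 1)), and p-values were adjusted over all tested genes by the Benjamini-Hochberg method. By limma, 0 of the 80 tested members passed an adjusted p of 0.05, as did 0 of all genes (0.0%). At an unadjusted p under 0.05, the count was also 0 of 80 members, against 3.3% of all genes. Adjusted p-values of the members ran from 0.968 to 0.999 in limma's fit. The direction was nevertheless shared: 77 of 80 members had a positive difference (higher in Usp25-/-), against 53.6% of all genes. Their median log2 difference was 0.50, against 0.03 for all genes. Both Usp25-/- mice lay above both Usp25+/+ mice in 45 of the 80, against 19.0% of all genes, and below both in 0 of the 80, against 14.7%. The members share every library, so these counts do not weigh as independent genes.

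The difference was smaller without WT-139. Without that mouse, 61 of 80 members had a positive difference, against 48.5% of all genes, and the median was 0.18, against -0.01. By limma 0 members then passed the adjusted threshold and 2 had an unadjusted p under 0.05, against 5.6% of all genes. Both Usp25-/- mice lay above WT-140 in 46 of 80, against 35.7% of all genes, and below it in 11, against 36.8%. When 1 mouse of a genotype is left out, that genotype has a lone mouse, assumed to vary like the 2 mice of the other. Without WT-140 instead, where WT-139 stands alone for Usp25+/+, 76 of 79 members had a positive difference, against 55.8% of all genes, and the median was 0.82. In that fit of limma, whose spread comes from the 2 Usp25-/- mice, 37 of the 79 had an unadjusted p under 0.05, against 22.3%, and 0 passed the adjusted threshold, against 1.38% of all genes. Several other measures also set apart the mouse in which the members were low. Besides its high neutrophil sum, WT-139 had lung epithelium markers summing to 2296 FPKM, against 4452, 5362 and 5327 FPKM in the other mice, and 6 of the 8 were lowest there. It also had 3865 rows listed at 0, against 7179 to 8818. Rn45s, the ribosomal RNA precursor row, was at 2820 FPKM in WT-139 and at 6643 to 10680 FPKM in the others, and Lars2 at 2504 FPKM against 13882 to 25473 FPKM. The part of these measures in the result was not tested. When every library was scaled to its own median member, an alternative chosen after the data had been seen, 34 of 80 members were higher. The other 46 were lower, 14.9% of all genes were higher, and the median of all genes became -0.43. This scaling makes the median member equal in every library, so a near-even split of the members follows from it by construction.

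**Figure D3:**
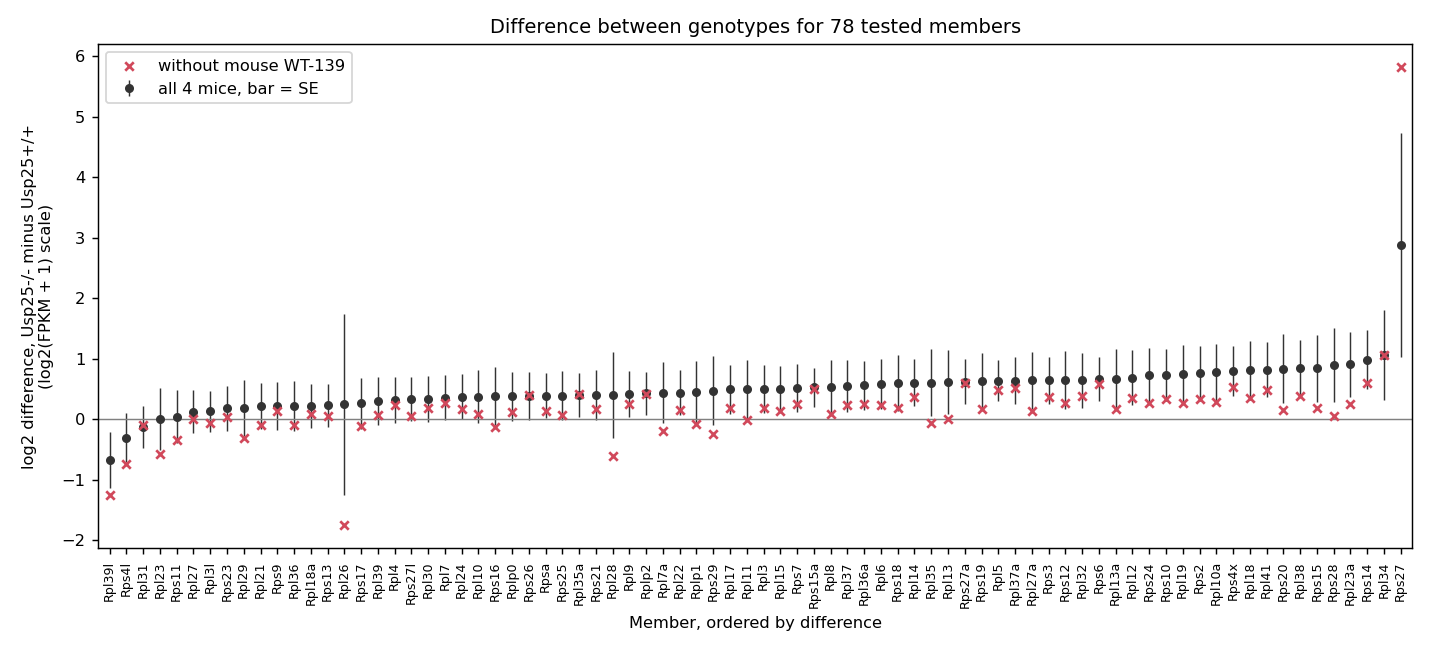
Log2 difference between genotypes (Usp25-/- minus Usp25+/+, on log2(FPKM + 1)) for 78 of the 80 tested members, with all 4 mice (circles, bars are SE from limma) and without mouse WT-139 (crosses). With all mice 75 of the 78 circles lie above 0, and without WT-139 the median of all 80 moves from 0.50 to 0.18, with Rps27 at 5.82 and Rpl26 at -1.76.

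In the large subunit without the stalk, 43 of 45 tested members had a positive difference, with a median of 0.50, or 0.17 without WT-139. Rpl5 and Rpl11 form, with 5S ribosomal RNA, the particle that binds Mdm2 when ribosome assembly fails. Rpl5 was at 197, 243, 367 and 315 FPKM, both Usp25-/- mice above both Usp25+/+ mice, with a log2 difference of 0.63 (SE 0.34, adjusted p = 0.968 by limma), or 0.48 without WT-139. Rpl11 was at 439, 893, 974 and 802 FPKM. KO-850 lay below WT-140 for Rpl11, and its log2 difference of 0.50 became -0.01 without WT-139. Of 8 proteins that line the exit tunnel of the growing chain or its rim, 7 had a positive difference, or 5 of 8 without WT-139. Rpl23a, the docking site at the tunnel exit for the signal recognition particle, was at 243, 606, 749 and 692 FPKM, with no overlap between genotypes and a log2 difference of 0.91 (SE 0.53). WT-139 was far below the other 3 mice for Rpl23a, and the difference was 0.25 without it. Rpl31, another protein of the rim, was at 343, 330, 344 and 276 FPKM. Its difference was -0.13 and its SD over the 4 mice, 0.15 in log2 units, was the smallest among the 80 members.

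The 3 stalk proteins recruit the GTPases of elongation. Rplp0, the stalk base, was at 650, 938, 1045 and 991 FPKM, and Rplp2 was at 596, 605, 837 and 780 FPKM. Both Usp25-/- mice lay above both Usp25+/+ mice for these genes, with log2 differences of 0.38 (SE 0.40) and 0.43 (SE 0.36). Without WT-139 these were 0.12 and 0.42. For Rplp1, WT-140 lay between the Usp25-/- mice, and its difference of 0.44 became -0.08 without WT-139. Rpl13a, which in interferon-treated myeloid cells leaves the ribosome and joins the GAIT translation inhibitor, was at 390, 787, 1028 and 758 FPKM, so KO-850 lay below WT-140. Its difference of 0.67 became 0.17 without WT-139. Rpl38, a small protein of the large subunit, was at 184, 350, 540 and 383 FPKM, without overlap and with a log2 difference of 0.84 (SE 0.46), or 0.38 without WT-139. Rpl18 was at 395, 748, 1126 and 804 FPKM, without overlap and with a difference of 0.81 (SE 0.48), or 0.35 without WT-139.

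In the small subunit 31 of 32 members had a positive difference, with a median of 0.55, or 0.19 without WT-139. Of the 5 proteins at the mRNA exit and platform, Rps14 had the largest difference among those without overlap, 0.99 (SE 0.48, adjusted p = 0.968 by limma), and 0.59 without WT-139. Rps28 was at 107, 349, 346 and 376 FPKM. For Rps28 WT-139 stood alone, and the log2 difference of 0.90 (SE 0.61) became 0.05 without that mouse. Rps26, which contacts the mRNA just upstream of the start codon, was at 1011, 981, 1432 and 1176 FPKM, with no overlap between genotypes. Of the 5 proteins near mRNA entry and the decoding site, Rps15 was at 346, 851, 1093 and 866 FPKM (log2 difference 0.84, SE 0.55), or 0.19 without WT-139. Rps2 was at 364, 658, 931 and 740 FPKM, and Rps3 at 254, 369, 536 and 428 FPKM. Their differences of 0.76 and 0.64 became 0.33 and 0.37 without WT-139. WT-139 was lowest for each of these 3 genes, and KO-850 exceeded WT-140 by less than WT-140 exceeded WT-139.

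Among the small subunit genes, Rps6 and Rps27a differed little between the Usp25+/+ mice. Rps6, the substrate of the S6 kinases downstream of mTORC1, was at 377, 419, 704 and 562 FPKM. Its log2 difference was 0.66 (SE 0.36) with all mice and 0.59 without WT-139. Rps27a, made as a fusion with ubiquitin, was at 448, 464, 815 and 605 FPKM, with a difference of 0.62 (SE 0.37) and 0.60 without WT-139. For these 2 genes the 2 Usp25+/+ mice lay close together and below both Usp25-/- mice, although neither passed limma's test (adjusted p = 0.968 for each). Rps4x, the X-linked form of Rps4, was at 660, 952, 1463 and 1297 FPKM, with a difference of 0.80 (SE 0.41), and 0.53 without WT-139. All 14 listed genes whose human counterparts are mutated in Diamond-Blackfan anaemia, a failure of red cell production, had a positive difference, with a median of 0.51. Among all 80 tested members 77 did, with a median of 0.50, so the listed genes were like the rest. Without WT-139, 10 of the 14 did, with a median of 0.22, against 61 of the 80 and 0.18. The list includes Rps27 and Rpl26, whose rows are described below. Rps19, the gene most often mutated, was at 315, 595, 754 and 598 FPKM. Its KO-850 value was nearly that of WT-140, and its difference of 0.63 became 0.17 without WT-139.

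The 3 most uneven members, Rps27, Rpl26 and Rpl34, each had a near-identical copy with a separate row of the table. Rps27 was at 2185, 36.2, 2326 and 1902 FPKM, a fold of 64.2 between the highest and lowest mouse. Rps27rt, an intronless gene at chr9:114891571-114891825 on the minus strand (mm9), was at 128, 1709, 184 and 92.1 FPKM. The 2 rows together were at 2314, 1745, 2510 and 1994 FPKM. Mouse WT-140 was low for Rps27 and high for Rps27rt, and its share of the sum at Rps27rt was 97.9%, against 4.62% to 7.32% in the other 3 mice. Rps27 lies at chr3:90016593-90017573 on the minus strand (mm9), and its spliced coding sequence of 255 bases is identical to that of Rps27rt. A read wholly inside it matches both spliced sequences equally. In the genome, a read across an exon junction runs unbroken at Rps27rt but is split by an intron at Rps27. How such reads were assigned is not given in the sources used here. The log2 difference between genotypes was 2.88 (SE 1.85) for the Rps27 row, 5.82 without WT-139 (adjusted p = 0.178 by limma, with a range over its alternatives of 0.178 to 1.00), and 0.15 for the sum. The shared sequence is printed first, with the start and stop codons in capitals. Rps27l, a paralogue that is a member in its own right, is printed below it with the bases that differ in capitals, 61 of 255. Its sequence can be told apart from Rps27 along its length, and its row was at 144, 213, 239 and 203 FPKM.
Rps27 and Rps27rt: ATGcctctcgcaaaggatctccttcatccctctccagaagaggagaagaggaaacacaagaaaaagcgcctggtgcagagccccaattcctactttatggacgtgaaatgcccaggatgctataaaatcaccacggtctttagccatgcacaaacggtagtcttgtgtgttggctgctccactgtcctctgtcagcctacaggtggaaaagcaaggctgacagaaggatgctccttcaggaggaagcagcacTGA
Rps27l: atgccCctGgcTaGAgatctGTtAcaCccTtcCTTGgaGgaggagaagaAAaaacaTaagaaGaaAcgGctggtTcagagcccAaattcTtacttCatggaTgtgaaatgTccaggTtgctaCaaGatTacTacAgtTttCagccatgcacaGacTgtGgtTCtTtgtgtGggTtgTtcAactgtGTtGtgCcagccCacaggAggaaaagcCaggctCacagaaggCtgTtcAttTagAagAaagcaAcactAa

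Rpl34 and Rpl26 also had a near-identical copy with a separate row, but there the copy's row held most of the sum in every mouse. Rpl34 (chr3:130429749-130433316, minus strand, mm9) was at 41.9, 41.9, 193 and 40.4 FPKM, and the row Rpl34-ps1 (chr6:71074604-71074957, plus strand) at 554, 874, 1004 and 872 FPKM. The rows summed to 596, 916, 1197 and 913 FPKM. KO-826 was alone in having a high Rpl34 row, whereas the sum had WT-139 lowest and KO-826 highest, as for most members. The coding sequences of 354 bases differ at 2 positions, T132C and C318G (Rpl34 first, counted from the first base of the start codon). Between them run 185 identical bases. The stretch from base 92 to base 354 is printed, with the differing bases in capitals. Within the spliced coding sequence only reads over those bases tell the rows apart. In the genome, reads across exon junctions are split by introns at Rpl34 and not at Rpl34-ps1. The untranslated parts were not compared.
Rpl34: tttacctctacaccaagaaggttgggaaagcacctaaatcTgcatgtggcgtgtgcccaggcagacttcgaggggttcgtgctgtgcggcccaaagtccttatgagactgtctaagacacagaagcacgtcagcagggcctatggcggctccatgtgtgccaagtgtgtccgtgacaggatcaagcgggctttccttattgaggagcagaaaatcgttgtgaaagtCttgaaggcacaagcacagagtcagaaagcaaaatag
Rpl34-ps1: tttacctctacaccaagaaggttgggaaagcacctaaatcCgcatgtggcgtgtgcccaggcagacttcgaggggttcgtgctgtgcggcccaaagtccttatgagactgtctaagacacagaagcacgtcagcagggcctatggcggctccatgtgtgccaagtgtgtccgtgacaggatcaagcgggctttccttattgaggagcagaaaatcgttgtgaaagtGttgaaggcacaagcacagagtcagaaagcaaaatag

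Rpl26 (chr11:68715085-68720491, plus strand, mm9), an exit tunnel protein that also binds p53 mRNA, was at 9.88, 173, 19.8 and 126 FPKM. The row Gm15772 (chr5:3236431-3236868, plus strand) was at 1176, 1290, 2111 and 1428 FPKM. WT-140 and KO-850 were high for the Rpl26 row and WT-139 and KO-826 low, a split that crosses the genotypes. The sum was 1186, 1463, 2130 and 1554 FPKM, with WT-139 lowest and KO-826 highest. Its log2 difference was 0.47, against 0.24 (SE 1.50) for the Rpl26 row and -1.76 for that row without WT-139. The coding sequences of 438 bases differ at C177T and T288C (Rpl26 first, same counting), shown in capitals in the stretch from base 137 to base 328.
Rpl26: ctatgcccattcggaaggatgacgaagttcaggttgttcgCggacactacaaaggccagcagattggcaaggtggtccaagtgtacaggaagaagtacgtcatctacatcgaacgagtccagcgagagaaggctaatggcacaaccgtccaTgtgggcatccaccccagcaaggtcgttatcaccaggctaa
Gm15772: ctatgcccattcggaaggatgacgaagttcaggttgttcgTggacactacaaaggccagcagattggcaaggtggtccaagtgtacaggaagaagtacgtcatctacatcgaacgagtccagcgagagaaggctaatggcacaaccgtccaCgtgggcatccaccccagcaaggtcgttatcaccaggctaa

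**Figure D4:**
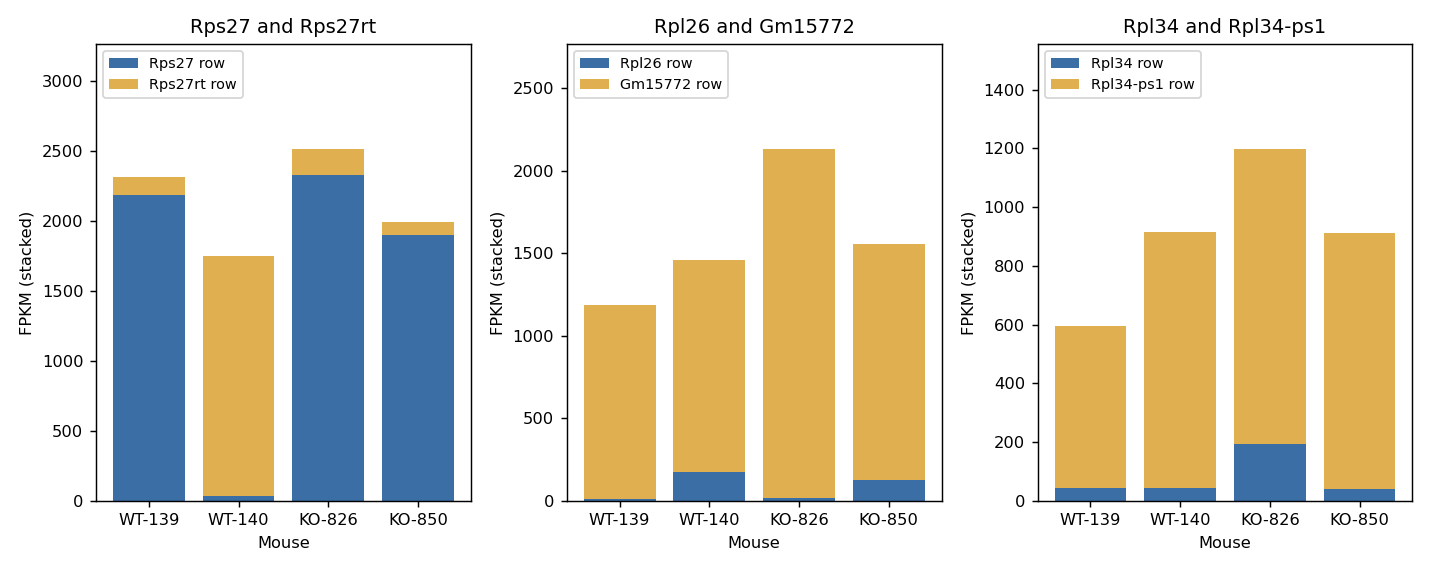
Stacked FPKM of a member's row and of the row of its near-identical intronless copy in each mouse, for Rps27 with Rps27rt, Rpl26 with Gm15772 and Rpl34 with Rpl34-ps1. The split between the rows changes from mouse to mouse, most for Rps27rt, which holds 97.9% of the sum in WT-140, while the sums vary by less.

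The sums varied less than the single rows. The SD over the 4 mice, in log2 units, was 2.92 for the Rps27 row and 0.23 for the sum, 1.96 and 0.35 for Rpl26, and 1.10 and 0.42 for Rpl34. Other copies with rows of their own differed in how steady their part of the sum was. Rpl37rt held 27.2% to 31.0% of its sum with Rpl37, and Rplp2-ps1 held 5.36% to 6.53% of its sum with Rplp2. Rpl14-ps1 held from 10.1% (KO-826) to 21.4% (WT-140) of its sum with Rpl14. In the mm9 genome, 79 of the 81 members could be matched to a gene model (not Rpl41 and Rps4l). Of these, 73 had at least 1 further place at least 95% identical over at least 90% of the coding sequence, 562 places in all, with a median of 5 a member and 54 for Rpl21. For 65 members, over 50% of the 50-base words of the coding sequence occurred elsewhere in the genome. The number of copies was nearly unrelated to the mean FPKM across the 79 members (Spearman's rho -0.06, a description across genes). It was also nearly unrelated to the SD relative to the median member (rho -0.06), as was the share of 50-base words found elsewhere (rho -0.03). The other 6, Rps3, Rpl8 and Rps27l among them, had no such copy. Their median log2 difference was 0.42, against 0.52 for the 55 with 1 to 9 copies and 0.46 for the 18 with 10 or more (over their tested members). Rpl8, of these 6, was at 427, 788, 881 and 798 FPKM, with a log2 difference of 0.53, or 0.09 without WT-139. Rps3 and Rpl8 each had both Usp25-/- mice above both Usp25+/+ mice, as had 45 of the 80 tested members and 19.0% of all genes. For Rps27l, Rpl39l and Rpl3l, also of these 6, the genotypes overlapped.

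Of the paralogue pairs within or beside the members, the standard form held most of the sum where the other is known from restricted tissues. Rpl10, Rpl3 and Rpl39 were at 784, 359 and 604 FPKM in WT-139, their lowest mouse, and Rpl10l, Rpl3l and Rpl39l were at 6.53 FPKM or less in every mouse. Rpl39l had a log2 difference of -0.67 (SE 0.47), or -1.25 without WT-139, with WT-140 alone high. Rps4l was at 19.0, 35.1, 24.7 and 17.4 FPKM, with a difference of -0.31 (SE 0.41), or -0.73 without WT-139, and WT-140 again highest. Rpl22, which has an extraribosomal part in T cell development, was at 75.1, 113, 143 and 111 FPKM. Its paralogue Rpl22l1 was at 87.0, 84.7, 118 and 105 FPKM, so it held 42.7% to 53.7% of the sum. WT-139 was the mouse with the larger part at Rpl22l1. Rpl36a and Rpl36al kept a nearly constant split, with 31.4% to 37.7% of the sum at Rpl36al.

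Genes for ribosomal proteins or their paralogues whose names fall outside the rule were counted apart. All 8 in the list had a positive difference, with a median of 0.48. Without WT-139, 5 of the 8 did, with a median of 0.22. With all mice, 7 of the 8 were lowest in WT-139. Rps3a1 was at 786, 900, 1540 and 1303 FPKM, with a log2 difference of 0.75 (SE 0.39), or 0.65 without WT-139. Fau, whose product carries Rps30, was at 659, 769, 1324 and 864 FPKM. For Rps3a1 and Fau, named by smallest p, both Usp25-/- mice were above both Usp25+/+ mice, as in 19.0% of all genes.

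Initiation and elongation factors bring mRNA and charged tRNA to the ribosome. Of 38 tested, 33 had a positive difference, with a median of 0.25. Without WT-139, 32 of 38 did, with a median of 0.27, while the ribosomal protein genes then had a median of 0.18. The difference between these groups was not tested. Eef1g, a subunit of the factor that recharges eEF1A, was at 128, 162, 263 and 261 FPKM. Its log2 difference was 0.86 (SE 0.33), or 0.69 without WT-139. With all mice its unadjusted p was 0.0453 and its adjusted p 0.968 by limma. Eef1g was thus 1 of 38 in the list with an unadjusted p under 0.05, against 3.3% of all genes. Eif3m was at 78.7, 78.5, 132 and 119 FPKM, Eef1d at 30.8, 58.0, 69.9 and 75.8 FPKM, and Eef1b2 at 97.6, 158, 231 and 185 FPKM. These 4 genes were named by smallest p in the list, which favours groups that do not overlap. In each, both Usp25-/- mice lay above both Usp25+/+ mice, as in 19.0% of all genes.

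Ribosome assembly factors act in the nucleolus and on pre-ribosomes in the cytoplasm. Of 42 tested, 35 had a positive difference, with a median of 0.24 (27 of 42 and 0.15 without WT-139). With all mice 0 passed limma's test, and 0 had an unadjusted p under 0.05, against 3.3% of all genes. Nob1, the nuclease that trims 18S ribosomal RNA, was at 5.52, 8.26, 12.4 and 11.8 FPKM, and Npm1, nucleophosmin, at 114, 113, 162 and 171 FPKM. Both genes had no overlap between genotypes. Nop16 was at 8.84, 8.76, 14.8 and 11.98 FPKM and Nmd3, the export adaptor of the large subunit, at 13.3, 10.8, 16.2 and 19.9 FPKM, also without overlap. The assembly factors named here were picked by smallest p, which favours a lack of overlap. Over all genes, 19.0% were higher in Usp25-/- without overlap. WT-139 was lowest in 18 of the 42 assembly factors, compared with 73 of the 80 ribosomal protein genes and 39.1% of all genes.

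Mitochondrial ribosomal proteins, encoded in the nucleus by another gene family, were mostly lowest in WT-139 as well. Of the 77, 71 were lowest in WT-139 and 31 were highest in KO-826. Their median level was 15.2, 23.8, 23.3 and 22.6 FPKM, so WT-139 was low and the other 3 mice were alike. In all, 67 of the 77 had a positive log2 difference, with a median of 0.29. Without WT-139, 40 of the 77 did, with a median of 0.03. The difference between these families was not tested.

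Promoter windows were available for 60 members in RefSeq's table (GRCm38.p6), each 250 bases before to 50 after the annotated start. A C at the start base followed by 4 pyrimidines was present in 13 of the 60 (21.7%), against 3.01% of all 27025 genes. A gene with several windows was counted if any of them matched. CCGGAA, the core bound by ETS factors, was found on either strand in 33 (55%), against 16.7%. GGGCGG, a GC box, was found on either strand in 36 (60%), against 38.2%, and TATAAA on either strand in 6 (10%), against 15.7%. Allowing the C and 4 pyrimidines to begin within 5 bases of the start gave 28 (46.7%), against 21.2%. CTTTCC on the plus strand within 20 bases of the start was in 11 (18.3%), against 2.30%, and AAGATGG on either strand in 9 (15%), against 7.28%. A match of letters is a description and says nothing of binding or of the true start in these samples. The 5 members with the highest mean FPKM among those with the pyrimidine start are printed from 20 bases before the start base, with the run of pyrimidines from the start base, as far as the 10 bases shown, in capitals. Their windows are Rps27 at chr3:90213639-90213668 on the minus strand, Rps18 at chr17:33955656-33955685 on the minus strand, Rps21 at chr2:180257359-180257388 on the plus strand, Rplp2 at chr7:141447631-141447660 on the plus strand, Rpl35 at chr2:39005122-39005151 on the minus strand (GRCm38.p6).
Rps27: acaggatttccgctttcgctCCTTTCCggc
Rps18: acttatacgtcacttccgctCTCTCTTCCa
Rps21: gcacttaccgaggacccgccCTCCTgccca
Rplp2: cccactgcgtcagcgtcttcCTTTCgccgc
Rpl35: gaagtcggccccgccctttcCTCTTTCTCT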

How the data were processed

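The deposited table holds FPKM values for 24421 gene rows and 4 mice; per the submitters' processing notes the authors used Bowtie 0.12.2 and mm9. For the FPKM tool, annotation, strandedness and the rule for reads that fit several places, nothing is given in the sources used here. Depth is unknown, so no counting interval is given. Rows whose symbols had become dates (27) were left out. Genes with at least 1 FPKM in at least 2 mice (12103) were compared on log2(FPKM + 1), which understates changes of low genes, with limma 3.58.1 (R 4.3.3, moderated test with a trend, two-sided, Benjamini-Hochberg adjustment, threshold 0.05), tested on simulated data. Tables used Python 3.11.15 with pandas 2.3.3, figures matplotlib 3.10.9. Copies were sought in mm9 with BLAST 2.17.0, from Gencode coding sequences; Rps27rt and Rpl37rt were matched through RefSeq synonyms. The members and all lists were chosen with earlier results of these data known. Named genes were the 10 highest and the lowest members, the largest differences with and without overlap, the most and least variable, paralogues, role groups, and up to 4 genes of smallest p in each list; Rpl8, Rpl18, Rpl38 and Rps19 were also named after their values were seen. A few genes that these rules name are not reported here. Alternatives changed the pseudocount, filter, scaling, limma options and the mice included.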

Additional observations from a re-analysis of the deposited data

How the results depend on the processing

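The median log2 difference of the members was 0.50, and the count of members passing limma's adjusted threshold was 0 under each alternative. Over the runs that leave out 1 mouse, the median ranged from 0.18 to 0.82, members higher in Usp25-/- from 61 to 76, all genes passing the threshold from 0 to 163 (the 163 without WT-140), and the share difference from 1.62 to 4.53 percentage points. A pseudocount of 0.1, other filters, a common total, median-of-ratios scaling and limma without a trend or robust left 76 or 77 members higher. Scaled to the median member, which by construction holds the members' median near 0, 34 were higher, with a median of -0.056. Rpl26 was then at -0.28, Rpl11 at -0.064, Rplp0 at -0.18, Rplp1 at -0.12 and Rplp2 at -0.13. Leaving out 1 mouse turned the sign of 7 genes: Rps27 ranged from -0.055 (without WT-140) to 5.82, Rpl34 from -0.053 (without KO-826) to 2.18, Rpl31 from -0.29 to 0.033 (without KO-850), Rps4l from -0.73 to 0.12 (without WT-140), Rpl26 from -1.76 to 2.24 (below 0 without WT-139 and, at -1.06, without KO-850), Rpl11 from -0.014 (without WT-139) to 1.01 and Rplp1 from -0.077 (without WT-139) to 0.96. Usp25 passed limma's threshold without WT-140, at -3.65 (adjusted p = 0.0341, range over its alternatives 0.0341 to 1.00). Without the 100 highest other rows the share difference was 5.06 points, against 3.08, because the sum it is taken from is smaller. Summing copy rows into 7 members, chosen after seeing the data, gave a median of 0.50 with 77 higher, or 0.18 with 62 higher without WT-139 (Rpl11 -0.014, Rplp1 -0.077). For the other changes the cause was not tested. No paired analysis was possible because the labels give the mice no shared numbers. FPKM carry no depth, so low members cannot be given a counting error.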

Other observations

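Further lists around the ribosome were read for the same 4 mice (Usp25+/+ mice WT-139 and WT-140 first, then Usp25-/- mice KO-826 and KO-850). By limma 0 genes of each list passed the adjusted threshold. Likewise 0 had an unadjusted p under 0.05, against 3.3% of all genes. Of 25 tested genes of the mTORC1 pathway and of TOP mRNA control, 12 had a positive and 13 a negative log2 difference, with a median of -0.0044. Without WT-139, 8 of 25 were positive, with a median of -0.14. Tsc1, part of the complex that restrains mTORC1, was at 4.72, 2.72, 1.72 and 1.31 FPKM, and Mtor, the kinase itself, at 3.59, 2.22, 1.27 and 1.82 FPKM. Eif4ebp2, a translation repressor that mTORC1 phosphorylates, was at 18.7, 13.9, 8.24 and 12.8 FPKM. All 3 genes were lower in both Usp25-/- mice than in both Usp25+/+ mice, as were 14.7% of all genes. Genes of these further lists were named by smallest p, which favours groups that do not overlap. Myc, a transcription factor that drives ribosome production, was at 6.04, 11.4, 14.3 and 12.9 FPKM, with WT-139 lowest.

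Of 16 genes of the RNA polymerase I machinery, which makes ribosomal RNA, 11 had a positive difference, with a median of 0.12 (11 of 16 and 0.13 without WT-139). Polr1d was at 64.0, 81.8, 118 and 97.3 FPKM, without overlap between genotypes. Of 13 factors that rescue stalled ribosomes, 9 had a positive difference, with a median of 0.14 (8 of 13 and 0.23 without WT-139). Usp10, a deubiquitinase that acts on small subunit proteins of stalled ribosomes, was at 4.50, 5.66, 10.6 and 7.57 FPKM, and Zfp598, the ligase that marks collided ribosomes, at 10.1, 10.6, 15.4 and 13.7 FPKM. Both were higher in both Usp25-/- mice, while Ascc2, which helps to split collided ribosomes, was lower in both, at 7.44, 8.29, 6.33 and 4.61 FPKM. Since genes were named by smallest p, such separation was favoured. Over all genes, 19.0% were higher and 14.7% lower without overlap. Of 12 genes of ribosomal stress and p53 targets, 7 had a positive difference, with a median of 0.08, whereas without WT-139 5 of 12 did and the median was -0.18. Mdm2, the p53 ligase that free Rpl5 and Rpl11 bind, was at 75.1, 27.6, 36.6 and 32.8 FPKM, with WT-139 alone high. Of 11 partners of nascent chains and other genes with TOP mRNAs, 10 had a positive difference, with a median of 0.18 (10 of 11 and 0.22 without WT-139), and Naca was at 192, 320, 364 and 363 FPKM.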
